A study of Mus musculus with 45 samples.

Results

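The genes studied were 9 components of the first steps of T cell receptor (TCR) signalling, namely the receptor chains Cd3e, Cd3d, Cd3g and Cd247, the kinases Lck and Zap70, the adaptors Lat and Lcp2, and the phosphatase Ptpn22. They were taken by symbol from a table of 55450 genes, in which each had 1 row. All 9 passed the filter on low counts in each comparison that held T cells, and 6 of 9 passed it within each B cell comparison of 2 groups.

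The TCR has no enzyme of its own and passes its signal through the CD3 chains and the CD247 homodimer, whose cytoplasmic tails carry tyrosine motifs. Lck, a Src-family kinase held at the CD4 and CD8 coreceptors, phosphorylates these motifs, and Zap70 docks on them and phosphorylates the membrane adaptor Lat and the cytosolic adaptor Lcp2. Ptpn22 is a tyrosine phosphatase that removes phosphate from Lck and Zap70. B cells use another set of proteins for the same steps, with Cd79a and Cd79b as signalling chains, Syk in the place of Zap70 and Blnk in the place of Lcp2.

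RNA-sequencing was done on 45 samples of cells sorted from the draining popliteal lymph nodes of mice immunized in the hind footpad with 20 µL of an IFA emulsion that held 50 µg OVA and 5 µg LPS. Follicular helper T cells (Tfh, PD1+ CXCR5+) and non-Tfh cells (PD1- CXCR5-), both TCRβ+ CD4+, were sorted on day 6. Germinal center (GC) B cells (GL7+ Fas+) and non-GC B cells (GL7- Fas-), both B220+, were sorted on day 9, so that cell lineage and day cannot be told apart. Each population came from S1PR4-/- mice, which carry a germline knockout (strain B6.129P2-S1pr4tm1Dgen/J, crossed onto C57/BL6 for 10 or more generations), and from WT littermates, of both sexes and 8 to 12 weeks old. There were 6 samples in each T cell group and in each GC B group, 5 of WT non-GC B cells and 4 of S1PR4-/- non-GC B cells. The labels do not tie a sample to an animal, so p-values measure the spread between these samples.

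Totals per sample were between 26299429 and 45548215 expected counts, with a median of 34188292. S1pr4 had 505 to 6305 counts in the WT samples and 0 to 40 in the S1PR4-/- samples. The 12 T cell markers summed to between 7773 and 10542 CPM (counts scaled to the TMM-adjusted library size of the sample) in T cells and to between 4.06 and 103.2 CPM in B cells, where all 12 were detected in each group. The 10 B cell markers summed to 946.2 to 1507 CPM in T cells, of which Ighm alone made 737.3 to 1335 CPM. Without Ighm they summed to 151.7 to 390.4 CPM in WT Tfh cells and to 151.1 to 171.3 CPM in WT non-Tfh cells, against 5176 to 12286 CPM in B cells. Summed Tfh markers (8 genes) were 2661 to 4094 CPM in Tfh and 208.7 to 486.5 CPM in non-Tfh cells, and GC B cell markers (8 genes) were 1431 to 2595 CPM in GC B and 127.5 to 183.9 CPM in non-GC B cells. Plasma cell markers (5 genes) reached 248.1 CPM in WT Tfh cells, myeloid markers (7 genes) 445.5 CPM in S1PR4-/- Tfh cells, and CD8 T and NK cell markers (5 genes) 93.2 CPM in WT Tfh cells.

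The 3 CD3 genes lie side by side on chromosome 9 of mm10 (GENCODE M21). Cd3g (ENSMUSG00000002033.14, chr9:44969572-44980431, minus strand) and Cd3d (ENSMUSG00000032094.8, chr9:44981786-44987339, plus strand) are transcribed away from each other from starts 1.355 kb apart. Cd3e (ENSMUSG00000032093.7, chr9:44998740-45009627, minus strand) starts 27.841 kb from Cd3d. The other members lie apart from each other, namely Cd247 (ENSMUSG00000005763.15) at chr1:165788681-165877277, Zap70 (ENSMUSG00000026117.10) at chr1:36761798-36782818, Lcp2 (ENSMUSG00000002699.13) at chr11:34046920-34092295 and Ptpn22 (ENSMUSG00000027843.13) at chr3:103859795-103912247 on the plus strand, and Lck (ENSMUSG00000000409.14) at chr4:129548344-129573641 and Lat (ENSMUSG00000030742.7) at chr7:126363824-126369570 on the minus strand. Of the exonic bases of Cd247, 56.4% also lie in exons of Pou2f1 on the opposite strand, and the strand setting of the counting is not stated. Pou2f1 had 39.3 to 73.3 CPM in the B cell samples while Cd247 had 0.0266 to 1.82 CPM there.

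The 250 bases before the annotated start are shown for the CD3 genes that share a divergent region, which varied together among T cell samples, and for the 3 members that rose in Tfh cells beyond the range of non-Tfh cells. The sequences are RefSeq's on GRCm38.p6 and read 5′ to 3′ on the strand of the gene. Capitals mark matches on either strand to CANNTG (E-box), AGGAAG (core of ETS sites), TGTGGT (RUNX) and CTTTGA (TCF/LEF), and matches that overlap share their capitals.
Cd3g (chr9:44980432-44980681, minus strand): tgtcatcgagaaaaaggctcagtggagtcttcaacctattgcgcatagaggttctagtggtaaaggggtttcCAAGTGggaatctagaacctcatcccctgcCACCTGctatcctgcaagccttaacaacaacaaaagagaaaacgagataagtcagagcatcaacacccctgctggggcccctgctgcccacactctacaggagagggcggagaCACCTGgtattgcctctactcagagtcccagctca
Cd3d (chr9:44981536-44981785, plus strand): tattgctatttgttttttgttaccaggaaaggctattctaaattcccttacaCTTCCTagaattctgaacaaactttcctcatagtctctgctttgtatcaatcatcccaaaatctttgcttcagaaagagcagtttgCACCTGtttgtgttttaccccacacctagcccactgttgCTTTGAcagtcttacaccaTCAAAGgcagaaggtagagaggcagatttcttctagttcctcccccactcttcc
Zap70 (chr1:36761548-36761797, plus strand): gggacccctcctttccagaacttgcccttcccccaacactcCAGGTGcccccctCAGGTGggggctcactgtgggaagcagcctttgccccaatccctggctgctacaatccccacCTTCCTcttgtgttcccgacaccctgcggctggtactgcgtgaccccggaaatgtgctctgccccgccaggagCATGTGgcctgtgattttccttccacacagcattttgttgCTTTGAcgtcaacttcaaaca
Lcp2 (chr11:34046678-34046927, plus strand): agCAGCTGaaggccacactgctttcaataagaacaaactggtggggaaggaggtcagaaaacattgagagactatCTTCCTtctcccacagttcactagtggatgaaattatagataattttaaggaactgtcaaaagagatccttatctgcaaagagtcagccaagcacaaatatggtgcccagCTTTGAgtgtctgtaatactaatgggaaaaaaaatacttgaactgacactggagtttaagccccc
Ptpn22 (chr3:103859545-103859794, plus strand): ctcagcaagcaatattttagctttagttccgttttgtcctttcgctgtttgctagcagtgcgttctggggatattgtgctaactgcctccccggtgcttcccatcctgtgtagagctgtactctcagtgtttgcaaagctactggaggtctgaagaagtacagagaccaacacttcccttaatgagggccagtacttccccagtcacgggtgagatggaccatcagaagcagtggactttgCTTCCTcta

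RefSeq gave 13 such windows for the 9 members, since Lck and Ptpn22 each have 2 annotated starts and Zap70 has 3. The AGGAAG core was in 11 of the 13 windows and in 29.5% of all 32851 windows of the same length. CANNTG was in 11 of 13 (66.2% of all windows), TGTGGT in 3 of 13 (14% of all) and CTTTGA in 3 of 13 (13.8% of all). The Cd3g window held 3 E-box matches and no match to the other motifs, while the Cd3d window held 2 matches to CTTTGA. The main Ptpn22 window held a single AGGAAG match, and the window of its other start, 482 bp downstream, held 2 matches to TGTGGT. These matches describe letters only, and windows of 1 gene are not independent.

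**Figure D1:**
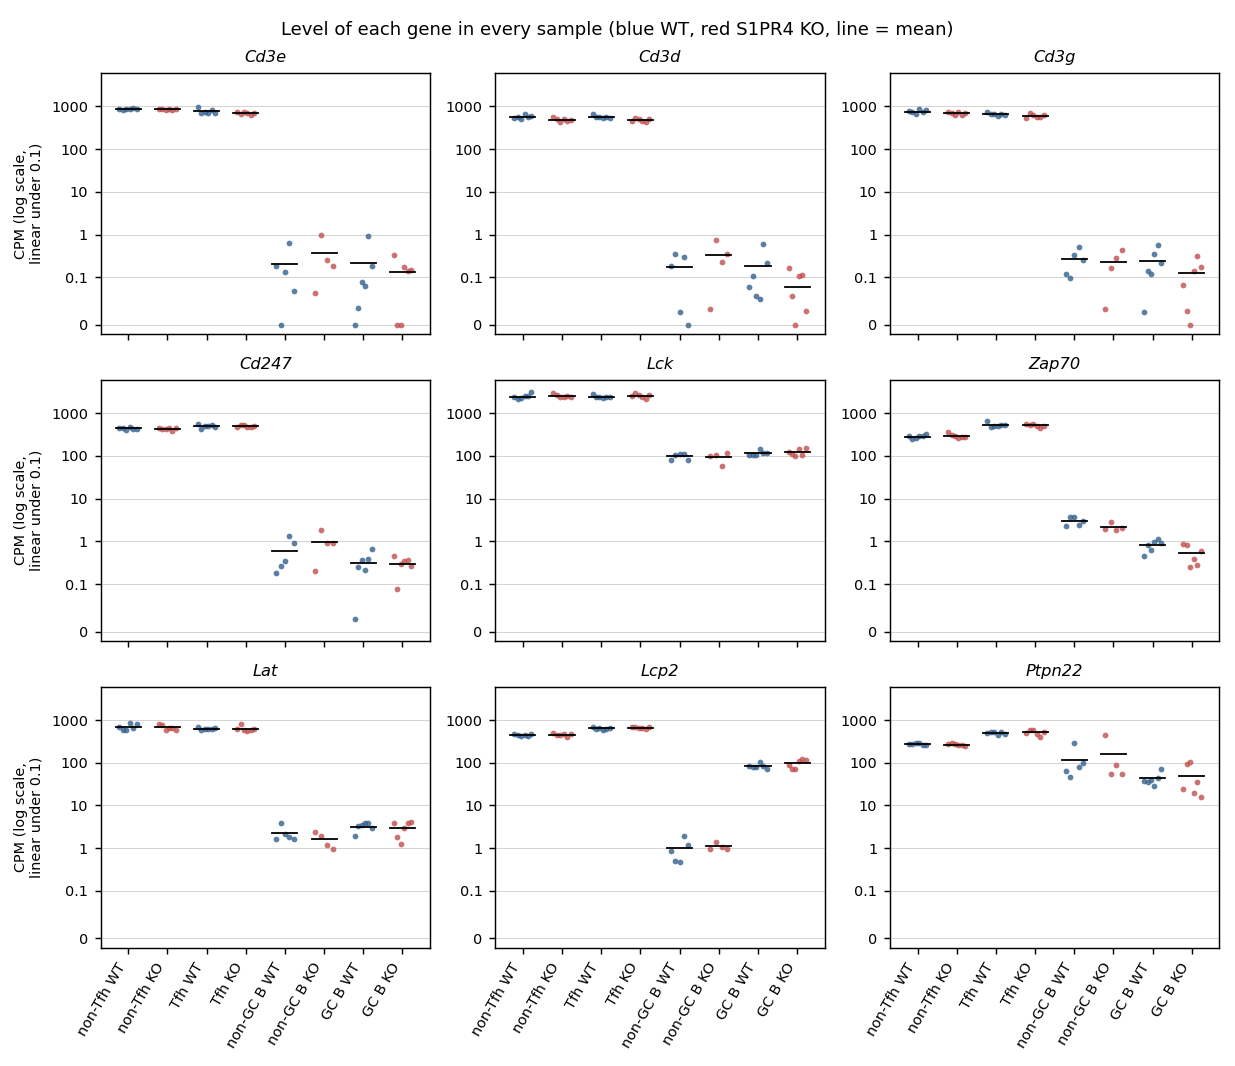
CPM of the 9 genes (y axis, log scale that turns linear under 0.1 CPM) in every sample of the 8 groups (x axis), with WT in blue, S1PR4-/- in red and a line at each mean. The 3 CD3 genes and Cd247 lie under 2 CPM in all B cell samples, whereas Lck and Ptpn22 stay above 10 CPM there and Lcp2 does so only in GC B cells.

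Per kb of exon, Lck had the highest level of the 9 genes in both T cell populations, with 834.1 CPM per kb in WT Tfh cells and 842.0 CPM per kb in WT non-Tfh cells. Cd3d followed with 310.4 and 316.0 CPM per kb. Lat had 225.8 and 250.7 CPM per kb, Cd3g 201.1 and 233.0, and Cd3e 191.8 and 212.9. The lowest per kb were Cd247, with 95.5 and 83.7 CPM per kb, and Ptpn22, with 73.7 and 40.8. The order among the B cell populations was another one, since Lck led GC B cells at 39.4 CPM per kb, followed by Lcp2 at 18.8, and led non-GC B cells at 33.2 CPM per kb, followed by Ptpn22 at 17.2.

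Tfh cells were compared with non-Tfh cells within each genotype. In WT mice, 4 of 9 members were higher in Tfh cells and 1 was lower at an FDR under 0.05 in edgeR's quasi-likelihood test, where 34.8% of all 13481 genes tested were higher and 33.9% were lower. In S1PR4-/- mice the counts were again 4 higher and 1 lower of 9, where 36.1% of genes were higher and 34.6% lower. The kinase Zap70, the adaptor Lcp2 and the phosphatase Ptpn22 rose most, and their sample ranges in Tfh and non-Tfh cells did not overlap in either genotype. Cd247 rose less, and Lck, Lat and Cd3d were not called in either genotype. Of the remaining CD3 genes, Cd3g was called lower in WT mice only and Cd3e in S1PR4-/- mice only. Both had negative log2 fold changes in both genotypes. The median log2 fold change of the 9 members was -0.01 in WT mice and that of all genes 0.00. In bulk samples, fewer cells that express a gene and less RNA per cell cannot be told apart.

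Zap70, the kinase that binds the phosphorylated receptor, had between 474.1 and 651.5 CPM in WT Tfh cells (median 516.9) and between 245.8 and 318.5 CPM in WT non-Tfh cells (median 287.7). The S1PR4-/- samples had 450.3 to 558.0 CPM in Tfh cells (median 523.0) and 260.9 to 360.3 CPM in non-Tfh cells (median 285.8). Every Tfh sample was therefore above every non-Tfh sample. The log2 fold change was 0.92 ± 0.08 (SE, n = 6 and 6, edgeR adjusted p = 1.05e-07) in WT, a ratio of means of 1.89, and 0.82 ± 0.08 (edgeR adjusted p = 3.95e-07) in S1PR4-/- mice, a ratio of 1.74.

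Ptpn22, the phosphatase that acts on Lck and Zap70, rose by a like amount. It had 452.9 to 530.6 CPM in WT Tfh cells (median 504.6) and 262.5 to 291.4 CPM in WT non-Tfh cells (median 275.8). Values in S1PR4-/- mice were 395.8 to 589.6 CPM in Tfh cells (median 515.2) and 239.9 to 284.2 CPM in non-Tfh cells (median 267.2). The S1PR4-/- Tfh samples were the most spread of these groups, yet the lowest of them was above all non-Tfh samples. The log2 fold change was 0.86 ± 0.05 (edgeR adjusted p = 3.44e-09) in WT and 0.96 ± 0.09 (edgeR adjusted p = 3.37e-07) in S1PR4-/- mice. In a fit over all 8 groups, which takes in the B cell samples where Ptpn22 varied most, the WT call was lost (0.85, edgeR adjusted p = 0.0665).

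Lcp2, the adaptor that links Lat to phospholipase C and Vav, had 598.2 to 688.7 CPM in WT Tfh cells (median 630.9) and 418.5 to 459.4 CPM in WT non-Tfh cells (median 453.0). The S1PR4-/- samples had 602.4 to 693.4 CPM in Tfh (median 664.5) and 402.1 to 505.4 CPM in non-Tfh cells (median 455.0). The groups stood apart in both genotypes, with log2 fold changes of 0.52 ± 0.05 (edgeR adjusted p = 2.61e-07) in WT and 0.55 ± 0.06 (edgeR adjusted p = 1.04e-06) in S1PR4-/- mice. These are ratios of means of 1.43 and 1.45. Zap70, Ptpn22 and Lcp2 each had a lower mean in both B cell populations than in Tfh cells of the same genotype. B cell markers were higher in some Tfh samples, and their part in these differences was not tested.

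Among the receptor chains Cd247 was called higher in Tfh cells of both genotypes. It had 437.1 to 570.4 CPM in WT Tfh cells and 413.6 to 471.6 CPM in WT non-Tfh cells, and the ranges overlapped (log2 fold change 0.19 ± 0.06, edgeR adjusted p = 0.0141). In S1PR4-/- mice the ranges of 471.5 to 544.7 and 382.0 to 461.3 CPM did not overlap (0.23 ± 0.05, edgeR adjusted p = 0.00192). Cd3g, which pairs with CD3E in the complex, had 588.6 to 743.9 CPM in WT Tfh and 661.7 to 865.2 CPM in WT non-Tfh cells, again with overlap (-0.21 ± 0.07, edgeR adjusted p = 0.0152), and was not called in S1PR4-/- mice (-0.17, edgeR adjusted p = 0.0503). Cd3e had 711.7 to 979.5 CPM in WT Tfh cells and 805.3 to 937.9 CPM in WT non-Tfh cells (-0.15, edgeR adjusted p = 0.0880). Its S1PR4-/- values were 618.5 to 758.0 CPM in Tfh and 829.2 to 878.9 CPM in non-Tfh cells, where it fell by 0.28 on the log2 scale (SE 0.05, edgeR adjusted p = 0.000239). The missing WT call rested on 1 sample, the WT Tfh replicate 1 at 979.5 CPM, without which Cd3e was called (-0.23, edgeR adjusted p = 0.00162). The calls of Cd3g and Cd247 in WT were lost in the fit over all 8 groups (edgeR adjusted p = 0.274 and 0.411).

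Within each sample the ratio of Cd247 to Cd3e counts was 0.654 ± 0.0463 (SD, n = 6) in WT Tfh and 0.515 ± 0.0402 in WT non-Tfh cells. It was 0.718 ± 0.0608 in S1PR4-/- Tfh and 0.503 ± 0.0306 in S1PR4-/- non-Tfh cells. The lowest ratio of any Tfh sample was 0.582 and the highest of any non-Tfh sample 0.569, so that the populations did not overlap in this ratio in either genotype. The ratio of Cd3d to Cd3e was 0.724 ± 0.0405 in WT Tfh and 0.662 ± 0.0722 in WT non-Tfh cells and overlapped.

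Lck, which phosphorylates the CD3 chains, was among the members that were not called. It had 2308 to 2761 CPM in WT Tfh and 2105 to 3064 CPM in WT non-Tfh cells, a log2 fold change of -0.01 with a 95% interval of -0.19 to 0.16. The difference in S1PR4-/- mice was 0.00 with an interval of -0.17 to 0.17. Lat had 582.0 to 701.1 CPM in WT Tfh and 593.4 to 834.7 CPM in WT non-Tfh cells, with an interval of -0.35 to 0.05. Cd3d had 523.1 to 657.0 CPM in WT Tfh and 513.5 to 664.0 CPM in WT non-Tfh cells, with an interval of -0.18 to 0.13. For these genes the samples of the populations were interspersed.

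**Figure D2:**
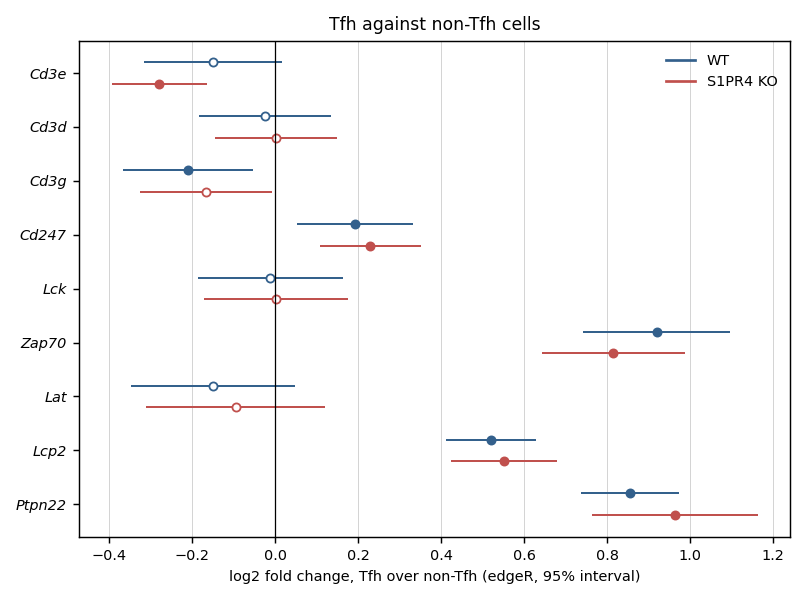
Log2 fold change of each gene in Tfh over non-Tfh cells (x axis) with 95% intervals, in WT (blue) and S1PR4-/- mice (red). Filled points passed an FDR under 0.05, and Zap70, Lcp2 and Ptpn22 stand between 0.52 and 0.96 while the CD3 genes and Lck lie between -0.28 and 0.00.

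S1PR4-/- samples were compared with WT samples in each population. No member was called in any of the 4 comparisons. Among all genes, 1.41% of those tested were called in Tfh, 0.235% in non-Tfh, 0.0612% in GC B and 0.0537% in non-GC B cells, so that 0 of 9 or 0 of 6 members is near the share of all genes. In edgeR's test 2 of 9 members had an unadjusted p under 0.05 in Tfh cells, where 2586 of all 13495 genes did. In non-Tfh cells it was 2 of 9 members and 1486 of 13197 genes. In the B cell populations it was 0 of 6 members each, with 540 of 13070 genes in GC B and 593 of 13038 in non-GC B cells. DESeq2 called 1 member in Tfh cells (Cd3d) and 0 in the other 3 populations, and the share of all genes that it called is not given here.

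The members with the lowest p-values were CD3 genes, all lower in S1PR4-/- samples. Cd3d had 523.1 to 657.0 CPM in WT Tfh cells (median 557.7) and 435.8 to 541.6 CPM in S1PR4-/- Tfh cells (median 481.2). In non-Tfh cells it had 513.5 to 664.0 CPM in WT (median 555.0) and 442.5 to 552.9 CPM in S1PR4-/- mice (median 486.2). The medians differed by a like amount in both populations, and the ranges overlapped. The log2 fold change was -0.22 ± 0.07 in Tfh (95% interval -0.38 to -0.07, edgeR adjusted p = 0.0994) and -0.23 ± 0.07 in non-Tfh cells (-0.39 to -0.07, edgeR adjusted p = 0.219). DESeq2 gave -0.22 (adjusted p = 0.0338) in Tfh and -0.23 (adjusted p = 0.0878) in non-Tfh cells. The 10 B cell markers had a median log2 difference of -1.39 between these Tfh groups (0 of 10 called), and 3 of the 4 plasma cell markers tested were lower in S1PR4-/- Tfh cells, Jchain among them (-3.64, edgeR adjusted p = 0.0380). The 5 plasma cell markers summed to 35.8 to 248.1 CPM in WT and 3.55 to 20.2 CPM in S1PR4-/- Tfh cells, and their part in the difference of Cd3d was not tested. With a B cell marker score as a covariate the difference of Cd3d was -0.14 (edgeR adjusted p = 0.613).

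Cd3e in Tfh cells differed by -0.17 (95% interval -0.35 to 0.00, edgeR adjusted p = 0.254) and in non-Tfh cells by -0.02. Cd3g differed by -0.13 in Tfh (edgeR adjusted p = 0.359) and by -0.15 in non-Tfh cells (edgeR adjusted p = 0.423). The kinases, the adaptors, Cd247 and Ptpn22 had log2 differences between -0.06 and 0.07 in both T cell populations. Over all 9 members the 95% intervals ran from -0.38 to 0.22 in Tfh and from -0.39 to 0.25 in non-Tfh cells.

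Whether the genotype difference itself differed between Tfh and non-Tfh cells was tested as an interaction. No member was called, where 0.0139% of genes were, and Cd3e had the most distant value (-0.15, 95% interval -0.34 to 0.04, edgeR adjusted p = 0.664). In B cells 0% of genes were called, and all 9 members had an edgeR adjusted p of 0.9999 for the interaction.

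**Figure D3:**
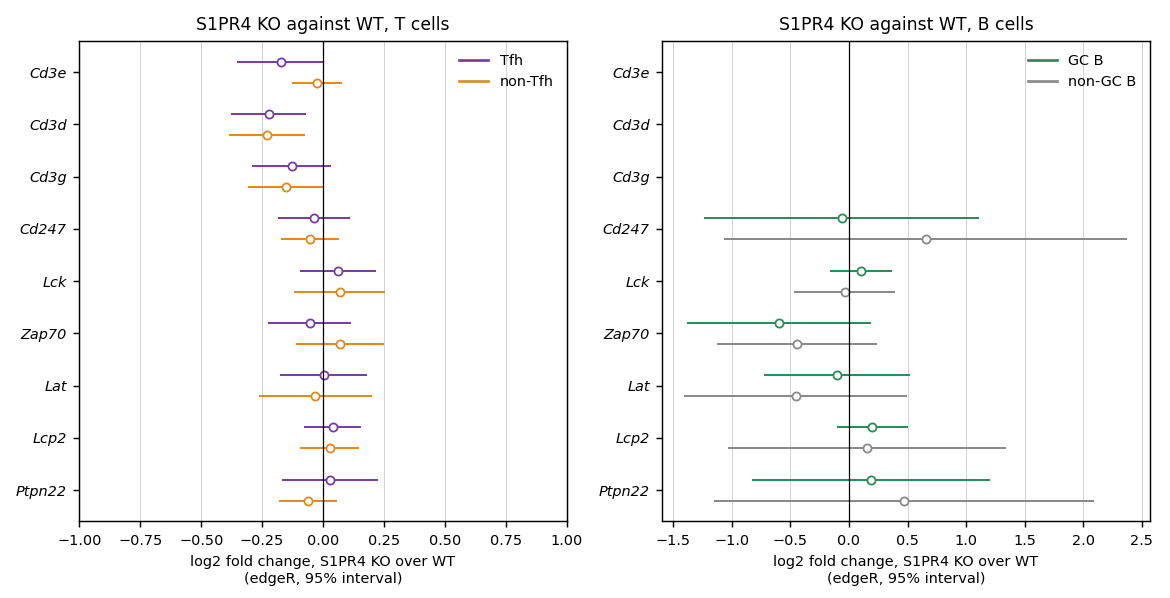
Log2 fold change of each gene in S1PR4-/- over WT samples (x axis) with 95% intervals, for Tfh and non-Tfh cells (left) and for GC B and non-GC B cells (right, 6 genes tested). All points are open because none passed an FDR under 0.05, and the T cell intervals lie within -0.39 and 0.25 whereas those of B cells reach -1.41 and 2.38.

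Both B cell populations were compared with the T cell populations of WT mice to place the levels of the 9 genes. All 9 were lower in non-GC B than in non-Tfh cells, where 29.2% of all genes were lower, and all 9 were lower in GC B than in Tfh cells, where 35.4% were. The CD3 genes passed the filter on low counts here only through the T cells, which were sorted as TCRβ+. Their calls were therefore fixed by the sort and are not a result. The size of the gap divided the members. The CD3 genes in B cells were at 0.0232% to 0.0363% of their T cell level, with 27 to 46 counts of Cd3e summed over each B cell group and up to 2 samples of a group at 0. For Cd247 the B cell level was 0.137% of non-Tfh in non-GC B and 0.0626% of Tfh in GC B cells, and for Lat it was 0.319% and 0.514%. The 12 T cell markers had medians of 0.147% and 0.0700%, between 0.0213% (Bcl11b) and 0.400% (Cd4) in non-GC B and between 0.0225% (Icos) and 4.44% (Cd28) in GC B cells.

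In WT mice Lck, Ptpn22, and in 1 population each Zap70 and Lcp2, were above the range of those markers. In S1PR4-/- GC B cells Cd28 was at 6.50% of the Tfh level, above Lck at 4.85% and below Ptpn22 at 9.51%. Lck had 103.5 to 147.6 CPM in WT GC B cells (median 109.5), which was 4.72% of the Tfh level, and 79.2, 106.8, 108.7, 111.5 and 80.0 CPM in the 5 WT non-GC B samples, which was 3.94% of the non-Tfh level. S1PR4-/- samples had 101.1 to 157.3 CPM in GC B cells (median 117.4) and 98.4, 103.8, 59.2 and 116.9 CPM in non-GC B cells. Lck was thus detected in every B cell sample, from 59.2 to 157.3 CPM. GC B exceeded non-GC B cells by 0.31 ± 0.12 on the log2 scale in WT (edgeR adjusted p = 0.0365) with overlapping ranges. That call was lost without WT GC B replicate 4 (edgeR adjusted p = 0.0634), without WT non-GC B replicate 1 (0.0988) or 5 (0.0937), and with total counts in place of TMM (0.112).

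GC B cells were next compared with non-GC B cells. In WT mice 2 of the 6 members tested were higher in GC B cells and 2 were lower, where 34.3% of all genes were higher and 32.9% lower. In S1PR4-/- mice 1 of 6 was higher and 2 were lower, where 33.6% were higher and 31% lower. Lcp2 gave the largest difference among these genes. It had 72.8 to 104.9 CPM in WT GC B cells (median 81.6) but 0.869, 0.492, 0.473, 1.97 and 1.17 CPM in WT non-GC B cells, from 15 to 60 counts. S1PR4-/- GC B samples had 70.1 to 120.4 CPM (median 98.8) and non-GC B samples 0.981, 1.39, 1.07 and 0.972 CPM. The gap between the populations was far wider than the spread within either. The log2 fold change was 6.48 ± 0.32 (edgeR adjusted p = 7.33e-09) in WT and 6.51 ± 0.24 (edgeR adjusted p = 6.21e-09) in S1PR4-/- mice. GC B cells therefore held 13.1% of the Tfh level of Lcp2 in WT and 14.7% in S1PR4-/- mice, and non-GC B cells 0.223% and 0.243% of the non-Tfh level. The T cell marker sum was 18.5 to 64.4 CPM in WT GC B samples and 5.84 to 22.1 CPM in WT non-GC B samples, and with a T cell marker score as a covariate the log2 fold change of Lcp2 was 6.37. Cd28, which is part of that sum and score, was itself called higher in WT GC B than in WT non-GC B cells (log2 fold change 4.42). The sum and the score therefore do not measure T cell content alone. In WT mice 4 of 6 myeloid and 5 of 5 plasma cell markers tested were also higher in GC B cells. Myeloid markers summed to 46.4 to 223.3 CPM in GC B and 14.4 to 58.7 CPM in non-GC B cells, and plasma cell markers to 3350.1 to 6606 and 185.7 to 451.9 CPM. Their part in the difference of Lcp2 was not tested. The gene that overlaps Lcp2 on the opposite strand, 4930469K13Rik, had at most 0.0985 CPM in any sample.

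Zap70 went the other way at a low level. It had 0.452 to 1.16 CPM in WT GC B cells, from 17 to 35 counts, and 2.28, 3.74, 3.62, 2.36 and 2.95 CPM in WT non-GC B cells, from 72 to 138 counts. S1PR4-/- samples had 0.254 to 0.890 CPM in GC B cells and 2.00, 2.88, 1.83 and 2.07 CPM in non-GC B cells. Every GC B sample was below every non-GC B sample, whereas the T cell marker sum had the higher median in GC B cells (26.1 against 15.7 CPM in WT). Of that sum, Cd28 alone had a mean of 22.2 CPM in WT GC B and 1.09 CPM in WT non-GC B cells. The log2 fold change was -1.80 ± 0.28 (edgeR adjusted p = 8.72e-05) in WT and -1.96 ± 0.40 (edgeR adjusted p = 0.00114) in S1PR4-/- mice. In non-GC B cells this was 1.06% of the non-Tfh level in WT, and in GC B cells 0.153% of the Tfh level.

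Ptpn22 was at 42.1% of its non-Tfh level in WT non-GC B cells, the highest share of the 9 members there, and at 8.62% of its Tfh level in WT GC B cells, below the share of Lcp2. Its values differed widely between samples. Values in WT non-GC B cells were 64.5, 47.1, 291.6, 78.7 and 99.1 CPM, and in S1PR4-/- non-GC B cells 446.6, 55.2, 88.8 and 55.4 CPM. In WT GC B cells it had 28.6 to 72.6 CPM (median 38.4), and in S1PR4-/- GC B cells 15.5 to 104.5 CPM. A single sample in each non-GC B group was thus far above the rest. The S1PR4-/- sample was also above all S1PR4-/- non-Tfh samples (at most 284.2 CPM), while the WT sample was level with the highest WT non-Tfh sample (291.4 CPM). GC B cells were lower by -1.37 ± 0.42 on the log2 scale in WT (edgeR adjusted p = 0.0105), which was -0.68 (edgeR adjusted p = 0.0310) without WT non-GC B replicate 3, and the call was lost with a T cell marker score as a covariate (-1.02, edgeR adjusted p = 0.0589). That score includes Cd28, itself called higher in WT GC B cells, and so partly follows the populations compared. In S1PR4-/- mice the difference was -1.68 and not called (edgeR adjusted p = 0.0569), and it was -0.40 (edgeR adjusted p = 0.567) without S1PR4-/- non-GC B replicate 1. Against non-Tfh cells, WT non-GC B cells were lower by -1.18 ± 0.38 (edgeR adjusted p = 0.0158) with overlapping ranges, and by -1.88 without replicate 3.

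**Figure D4:**
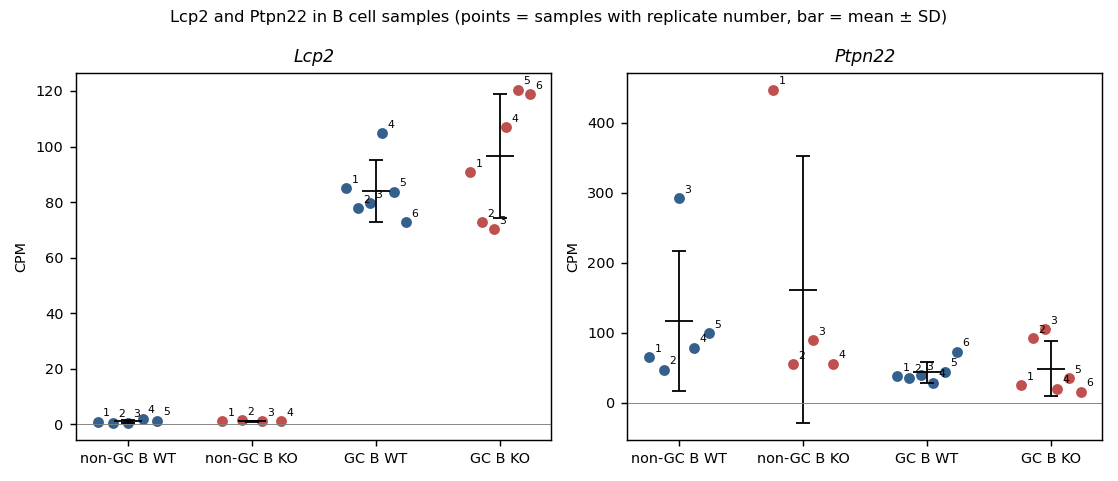
CPM (y axis) of Lcp2 (left) and Ptpn22 (right) in the B cell samples of each group (x axis), with the replicate number beside each point and the mean ± SD as a bar. Lcp2 separates GC B samples (70.1 to 120.4 CPM) from non-GC B samples (0.473 to 1.97 CPM), and Ptpn22 has single high samples at 291.6 and 446.6 CPM among non-GC B cells.

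Cd247 in B cells was called lower in GC B than in non-GC B cells in S1PR4-/- mice only (-1.59 ± 0.56, edgeR adjusted p = 0.0262, against -0.87 and adjusted p = 0.262 in WT), from at most 55 counts a sample. That call was lost without S1PR4-/- non-GC B replicate 2 (edgeR adjusted p = 0.118), with voom and without the filter on low counts, and the difference between the genotypes was not called in the interaction test. Lat had 2.22 ± 0.931 CPM (SD, n = 5) in WT non-GC B and 3.21 ± 0.732 CPM (n = 6) in WT GC B cells and was not called (edgeR adjusted p = 0.0733). Without WT non-GC B replicate 2, the highest of its group, it was called (0.88, edgeR adjusted p = 0.00722). The 3 CD3 genes did not pass the filter on low counts in the fits of GC B against non-GC B cells.

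The wider pathway was described with 4 lists. Of 10 TCR chains, coreceptors and accessory receptors, 4 were higher and 1 lower in WT Tfh than in WT non-Tfh cells (median log2 fold change 0.15). The coreceptor Cd4 was higher (1033 against 772.8 CPM, 0.42 in WT and 0.38 in S1PR4-/- mice), and so was Cd5, a receptor that restrains TCR signalling (537.8 against 429.0 CPM, 0.33 in WT), which was not called in S1PR4-/- mice (0.22, edgeR adjusted p = 0.0627). Cd8b1, a chain of the CD8 coreceptor, was lower (11.8 against 20.7 CPM, -0.81 in WT and -0.95 in S1PR4-/- mice). Trbc1 and Trbc2 are nearly identical in sequence, so their separate values are uncertain. The same comparison in S1PR4-/- mice had 3 higher and 1 lower.

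Of 23 other kinases, adaptors and effectors, 7 were higher and 10 lower in WT Tfh cells (median -0.06), and 8 were higher and 9 lower in S1PR4-/- mice. The largest changes were falls in the Tec-family kinases Txk (104.1 against 383.7 CPM, -1.88 in WT and -2.02 in S1PR4-/- mice) and Tec (15.4 against 54.5 CPM, -1.82 and -1.77). Rasgrp1, which activates Ras downstream of Lat, also fell (267.5 against 754.4 CPM, -1.49 and -1.37). Of 16 negative regulators, 7 were higher and 5 lower in WT (median 0.13), and 6 were higher and 7 lower in S1PR4-/- mice. Sla, an adaptor that promotes degradation of the receptor complex, rose (614.1 against 250.9 CPM, 1.29 and 1.01), and so did the adaptor Lax1 (167.7 against 77.3 CPM, 1.12 and 1.02). Dgka, a diacylglycerol kinase, fell (802.6 against 1681 CPM, -1.07 and -1.13). The rise of Zap70, Lcp2 and Ptpn22 was thus within the range of these neighbours, and each list held genes called in both directions.

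All 9 B cell receptor counterparts were higher in WT Tfh than in WT non-Tfh cells (median 2.65), and 7 of 9 in S1PR4-/- mice. Their levels were low, with Blnk at 15.7 against 1.35 CPM (3.53), Plcg2 at 20.0 against 2.33 CPM (3.10) and Syk at 16.1 against 1.88 CPM (3.10). In S1PR4-/- against WT Tfh cells 2 of the 9 were lower and the median was -1.86. Of the 10 B cell markers, 7 were higher in WT Tfh than in WT non-Tfh cells and 3 were lower, namely H2-Ob (-1.71), Cd72 (-1.54) and Ighm (-0.32), which were named after their values were seen. The part of B cell RNA in the change of the counterparts was not tested. In the other 3 lists 0 genes were called between genotypes in any of the 4 populations. Against non-Tfh cells, where 28.1% of all genes were higher and 29.2% lower, WT non-GC B cells had 9 of 10 receptors lower, 17 of 23 kinases, adaptors and effectors lower and 4 higher, 8 of 16 negative regulators lower and 5 higher, and all 9 B cell counterparts higher. GC B against non-GC B cells of WT mice, where 34.3% were higher and 32.9% lower, had 13 lower and 3 higher of 21 kinases, adaptors and effectors and 8 lower and 3 higher of 16 negative regulators. It had 1 lower and 2 higher of 8 receptors and 4 lower and 1 higher of 9 B cell counterparts.

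Among the 24 T cell samples the members also varied within groups. After each gene's log2 level was set against the mean of its group, Pearson's r over the 36 pairs of members ran from 0.166 (Cd3e and Lat) to 0.898 (Cd3d and Cd3g), with a median of 0.535, and 20 pairs were above 0.5. Lck and Zap70 had 0.826 and Lck and Lat 0.806, while Cd3e had a median of 0.385 with the other members. These values describe 24 samples that share library preparation and scaling factors. The mean deviation of the 9 members ran from -0.166 (S1PR4-/- Tfh replicate 5) to 0.184 (WT Tfh replicate 1), and it had an r of -0.646 with the log2 TMM factor, -0.182 with the log2 total count and 0.148 with the B cell marker score. The part of the scaling in these correlations was not tested.

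**Figure D5:**
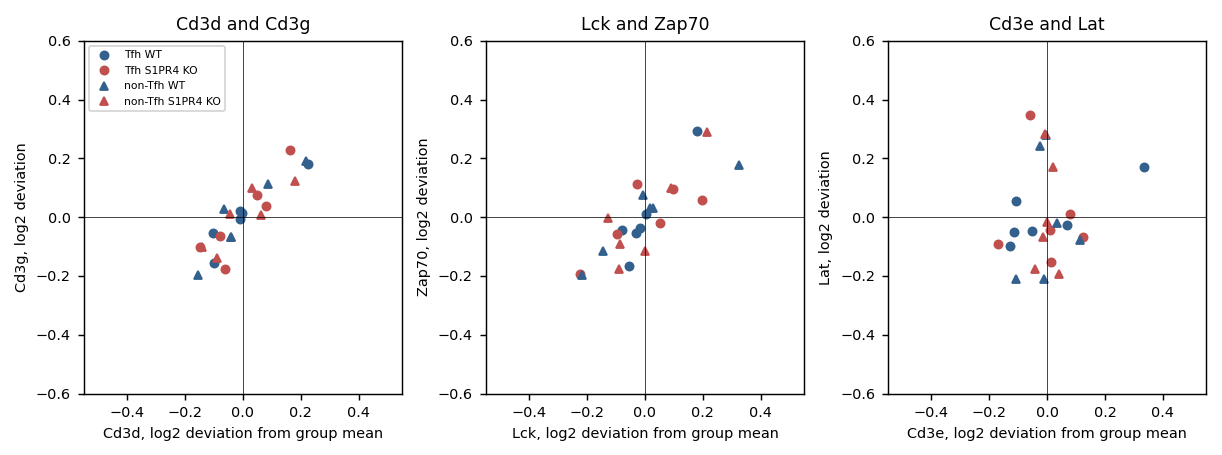
Log2 deviation of each T cell sample from its group mean for Cd3d and Cd3g (left), Lck and Zap70 (middle) and Cd3e and Lat (right), with circles for Tfh and triangles for non-Tfh samples, blue for WT and red for S1PR4-/- mice. Points follow the diagonal for the first pairs (r of 0.898 and 0.826) and scatter for the last (0.166).

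The genes most like the mean of the members over all 45 samples were the TCR chain genes Trac (r = 0.9972), Trbv13-2 (0.9969) and Trbv3 (0.9961), the transcription factor Tcf7 (0.9952) and the adaptor Trat1 (0.9949), among 9932 genes of at least 5 CPM. Here T and B cells form separate clusters, so these values mark the difference between lineages. Over the 24 T cell samples the most similar among 9623 genes were Glmp (0.943), Rnaset2b (0.932), Rnaset2a (0.928), Ctsa (0.917) and Abhd17a (0.915), of which Glmp and Ctsa encode lysosomal proteins. The closest genes therefore differed with the samples taken in.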

How the data were processed

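Per the methods and the labels, mRNA from sorted cells was sequenced from stranded libraries, reads were trimmed with Cutadapt 2.10 and aligned to mm10 with STAR 2.5.3, duplicates were marked with Picard, and genes were quantified with RSEM 1.3.0, by the authors. The deposited values are expected counts without scaling (8.83% were not whole) and were rounded here. The methods name GENCODE M30, but the symbols are those of M21 (55423 of 55450), from which positions and exon lengths were taken. Whether RSEM used the strand is not given in the sources used here.

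Genes were filtered with filterByExpr and scaled by TMM, and the groups compared were fitted with edgeR 4.0.16 (quasi-likelihood test, R 4.3.3). Genes with a Benjamini-Hochberg FDR under 0.05 over all genes tested were called. Standard errors came from the F statistic and 95% intervals from the t distribution. CPM used TMM library sizes. The study's methods use DESeq2 in iDEP. DESeq2 1.42.0, limma 3.58.1 (voom), other scaling, no filter, 1 fit for all groups, a fold change over 1.5, replicate blocks, marker covariates and leaving out samples were run as alternatives. The fits were checked on simulated data. Similarity used log2 CPM (prior count 2) of genes of at least 5 CPM.

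All 9 members were named, with the 3 genes of largest change in each pathway list (called, at least 1 CPM, no overlap, WT Tfh against non-Tfh cells, and by the same rule 2 for each genotype comparison, where none qualified), the defining markers used and the 5 most similar genes. Some genes that this rule or these lists take in are not reported here. The members and lists were chosen with earlier results of these data known. Promoter sequences are RefSeq's (GRCm38.p6).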

Additional observations from a re-analysis of the deposited data

Results flagged for a closer look

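In 12 of the 72 sets of 1 member in 1 group, the highest sample stood apart from the others by more than Dixon's 95% limit. Chance passes that limit in about 1 of 20 independent sets of normally distributed values. The sets here share samples between correlated members and some hold few counts, so 12 of 72 cannot be set against that rate. WT Tfh replicate 1 stood apart in this way for Cd3d (657.0 CPM, next 560.4), Lck (2761 CPM, next 2443) and Zap70 (651.5 CPM, next 535.4), and S1PR4-/- Tfh replicate 2 did so for Lat (794.4 CPM, next 630.0).

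In B cells, Ptpn22 had 291.6 CPM in WT non-GC B replicate 3 (next 99.1), 446.6 CPM in S1PR4-/- non-GC B replicate 1 (next 88.8) and 72.6 CPM in WT GC B replicate 6 (next 44.4). Without the first 2 of these samples, an alternative chosen after the data were seen, the genotype difference of Ptpn22 in non-GC B cells was -0.12 in place of 0.47 on the log2 scale, and it was not called in either case. Lck had 147.6 CPM in WT GC B replicate 4 (next 117.6), and Lat had 3.84 CPM in WT non-GC B replicate 2 (next 2.15). The remaining 3 sets lay under 1 CPM, with Cd3e at 0.925 CPM (next 0.185) and Cd3d at 0.617 CPM (next 0.216) in WT GC B replicate 5 and Cd3e at 0.624 CPM (next 0.180) in WT non-GC B replicate 4. The 2 non-GC B samples high for Ptpn22 also stood apart for Fkbp5, a gene looked at after the data were seen, with 175.1 and 292.3 CPM against 49.4 to 73.2 CPM in the other non-GC B samples. The cause was not tested.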

How the results depend on the processing

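The precision of these results is limited by 4 to 6 samples a group and, in B cells, by at most 55 counts a sample for the CD3 chains and Cd247. Over 13 alternatives other than leaving out a single sample, 757 of 831 member values kept their direction and their side of the threshold. Fits that left out several samples at once are among the 13. Of the 831 values, 20 lost a call, 21 gained one and 33 changed sign, none of these 33 called in either fit. The cause of these changes was not tested. Scaling moved the median of all genes by over 0.1 (log2) in 1 comparison, -0.14 for non-GC B against non-Tfh cells with total counts.

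The number of members called between Tfh and non-Tfh cells, 5 in each genotype, was 2 in WT and 3 in S1PR4-/- mice in 1 fit over all groups, and 2 and 2 with a fold change over 1.5 required as well. Between genotypes in Tfh cells it was 1 in place of 0 with DESeq2. For GC B against non-GC B cells it was 2 in place of 4 in WT with a T cell marker covariate, and in S1PR4-/- mice, in place of 3, it was 5 with DESeq2 or its size factors, 7 in 1 fit over all groups, and 3 to 6 when single samples were left out. The 6 came without S1PR4-/- GC B replicate 3. The 3 was out of 6 members tested, whereas the fit over all groups keeps genes that pass the filter through T cells and so tested more members. The share of all genes called in each alternative is not given here. These counts therefore do not tell a change in the members from a change in all genes.

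Equal replicate numbers were not treated as pairs in the main fits. By the rule used, correlations of same-numbered deviations were too low, at least 0.0454 between WT Tfh and non-Tfh cells and 0.0866 in S1PR4-/- mice. Yet 4 of 6 WT and 6 of 6 S1PR4-/- Tfh samples correlated best with their own number. The low correlations therefore do not show that the Tfh and non-Tfh samples were unpaired. With a replicate block 6 members were called between WT Tfh and non-Tfh cells (Cd3e at -0.16, edgeR adjusted p = 0.0344), 5 in S1PR4-/- mice, 4 for GC B against non-GC B cells in WT, and 0 between genotypes. For the block, too, the share of all genes called is not given here.

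Signs changed for uncalled log2 differences as follows. Tfh against non-Tfh in WT, Lck was 0.0053 with DESeq2 and with its size factors. In S1PR4-/- mice Cd3d was -0.076 with total counts, -0.00290 with DESeq2, -0.00288 with its size factors, -0.000176 with voom and -0.014 in 1 fit over all groups, and Lck was -0.076, -0.00290, -0.00290, -0.00133 and -0.014 in the same fits and -0.00120 with the block. Between genotypes in Tfh cells Lat was -0.0015 with total counts, -0.0038 with voom, -0.0043 with the block and -0.046 with a B cell marker covariate. With that covariate in non-Tfh cells Cd3e was 0.016, Lat 0.035 and Lcp2 -0.023. In GC B cells Cd247 was 0.25 with voom, 0.047 with the block and 0.18 with a T cell marker covariate, Ptpn22 was -0.17, -0.14 and -0.087 in these fits, and Lat was 0.075 with the covariate. In non-GC B cells Ptpn22 was -0.13 with the covariate and -0.12 without the 2 samples above 200 CPM. The interaction of Lck in T cells was 0.00628 with DESeq2 and 0.00627 with its size factors, and that of Lcp2 in B cells -0.19 with voom and -0.12 with the block.

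Leaving out single samples changed the sign of further uncalled values. Tfh against non-Tfh, Cd3d ran from -0.076 to 0.025 in WT and from -0.037 to 0.034 in S1PR4-/- mice, and Lck from -0.055 to 0.051 and from -0.038 to 0.041. Between genotypes in Tfh cells Zap70 ran from -0.087 to 0.010, Lat from -0.080 to 0.040 and Ptpn22 from -0.022 to 0.087. In non-Tfh cells Lat ran from -0.088 to 0.030 and Lcp2 from -0.0017 to 0.055. In GC B cells Cd247 ran from -0.32 to 0.31, Lat from -0.22 to 0.046 and Ptpn22 from -0.20 to 0.40. In non-GC B cells Lck ran from -0.16 to 0.13, Lcp2 from -0.030 to 0.55 and Ptpn22 from -0.81 to 1.16.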

Other observations

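Further genes of the pathway lists, chosen after their values were seen, were called between Tfh and non-Tfh cells. Fyn, the other Src-family kinase at the TCR, had 1242 ± 73.3 CPM (SD, n = 6) in WT Tfh and 634.3 ± 29.9 CPM in WT non-Tfh cells (log2 fold change 0.97, edgeR adjusted p = 6.95e-10), and 0.98 in S1PR4-/- mice, while Lck was not called. Grap2, the adaptor that carries Lcp2 to Lat, had 26.2 ± 3.23 against 72.4 ± 8.73 CPM (-1.46, edgeR adjusted p = 1.07e-08, and -1.63 in S1PR4-/- mice), whereas Lcp2 itself was higher in Tfh cells.

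Csk, the kinase that holds Lck inactive, was higher in WT Tfh cells (0.49, edgeR adjusted p = 1.60e-05) and in S1PR4-/- mice (0.22, edgeR adjusted p = 0.00332, with overlapping ranges). Ptprc, the phosphatase CD45 that activates Lck, was higher by 0.47 in WT (edgeR adjusted p = 0.000102) and 0.56 in S1PR4-/- mice. Over the 21 B cell samples the genes most like Ptpn22 among 9603 genes were Serinc3 (r = 0.934), Mfsd11 (0.926) and Ppp1r21 (0.895), with the 2 high non-GC B samples among the points.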
